A study of Mus musculus with 12 samples.

Results

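Dnmt3a-deficient MYC lymphomas were set against normal thymocytes of the same mouse strain, so the comparison covers the whole distance between a non-malignant thymus cell and a tumor that lacks the DNA methyltransferase Dnmt3a. The members were chosen by their sample labels alone: 4 arrays of Dnmt3a-deficient tumor and 3 arrays of normal thymocytes, 7 of the 12 arrays in the series. Labelled RNA of each sample was hybridised to an expression array, and each gene is given as a log2 expression level from robust multi-array averaging (RMA), on which a difference of 1 is a 2-fold change. All samples came from thymus of FVB/N mice. The normal thymocytes were labelled wild type, non-tumor, with the age label 24 dpn. The deficient tumors carried a Dnmt3a-deficient genotype and the age label Terminal. In the study's design, Dnmt3a was deleted in hematopoietic cells that also carried MYC, and T-cell lymphomas arose. The remaining 5 arrays held T-cell lymphomas labelled wild type and Terminal, called control tumors here, and their values are given beside members of the comparison. The promoters that drive MYC and the recombinase, the deleted part of Dnmt3a and whether each tumor came from its own animal were not given in the sources used here. P-values therefore measure the spread between these samples. Genotype, malignancy, age and any shared handling of a group cannot be told apart.

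Thymocytes mature by rearranging their T cell receptor genes and by passing through stages marked by the coreceptors CD4 and CD8, under signals from Notch, cytokine receptors and the T cell receptor itself. MYC is a transcription factor that pairs with MAX on E-box sequences and raises genes for ribosome assembly, translation, metabolism and cell division, and its overexpression drives lymphoma. Dnmt3a adds methyl groups to unmethylated cytosines, and its loss is a recurrent event in blood cancers.

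The genotype label went with a lower level of its own gene. Dnmt3a was measured at log2 levels of 9.63, 9.48 and 9.33 in normal thymocytes 1 to 3 and at 7.33, 7.62, 7.19 and 7.53 in deficient tumors 1 to 4. No deficient tumor reached a normal value, and the mean fell by 2.06 on the log2 scale (SE 0.26, limma adjusted p = 5.3e-05), 4.18-fold. Against the control tumors it was lower by a log2 difference of -1.25 (limma adjusted p = 0.0317). An ordinary linear model without moderation did not make this call, since it called 0 genes against the control tumors. The array's Myc probe set read 9.43, 9.86 and 9.51 in normal thymocytes and 6.16, 6.31, 6.78 and 6.39 in the deficient tumors. Endogenous and transgenic Myc transcripts cannot be separated here, since whether these probes detect the transgene was not given, so the Myc signal of the tumors, lower in all 4 arrays, checks no label.

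Among the normal thymocytes, number 2 stood apart: its Pearson correlation with the deficient tumors across genes was 0.880 to 0.883, against 0.905 to 0.910 for numbers 1 and 3, and it was the lowest normal array for 59% of the genes that were at least 2-fold higher in the tumors. The 75th percentile of log2 values, the level below which 75% of the genes lie, was 8.43 to 8.52 in the deficient tumors and 8.47 and 8.44 in control tumors 1 and 2, but 8.04 to 8.12 in the normal thymocytes and 8.16 to 8.19 in control tumors 3 to 5. This split is no labelled batch, and every deficient tumor lies on one side of it with every normal array on the other. It was entered as a further term in the model, which then estimates its size from the control tumors alone. The model thereby takes control tumors 1 and 2 to be otherwise like 3 to 5. This did not hold for adipocyte and neutrophil marker genes. Adipocyte markers averaged 5.83, 8.66, 5.70, 5.80 and 5.76 over control tumors 1 to 5. Neutrophil markers averaged 5.68, 5.92, 7.83, 7.75 and 5.61. With the term, their median log2 differences from normal thymocytes went from -0.07 to -1.62 and from -0.63 to 0.33. A call that ended with the term therefore does not measure the split alone. Results are given without this term, and with it where the call ended; the part of the split in any result was not tested beyond this.

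Of 19309 genes tested, 7262 differed between deficient tumors and normal thymocytes at a limma adjusted p under 0.05. The shares were 18.7% higher and 19.0% lower, and the groups did not overlap in 49.7% of all genes. The sizes were less even: higher genes had a median log2 difference of 1.21 and lower genes one of -0.73, against -0.10 over all genes tested. At 4-fold or more, 612 genes were higher and 144 lower, and at 8-fold or more 86 were higher and 26 lower. Under 1.5-fold, 276 were higher and 1024 lower. Genes at least 2-fold lower were highly expressed in normal thymocytes, with a median log2 level of 8.90, against 6.48 for all genes and 7.20 for genes at least 2-fold higher. In the lowest 4828 genes by mean level over the 7 arrays, 47 were higher and 484 lower, and in the highest 4827 1811 were higher and 915 lower. With the array set as a term, 1922 genes were higher and 1640 lower, and 2685 genes were called in the same direction both ways, 37.0% of the 7262.

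**Figure D1:**
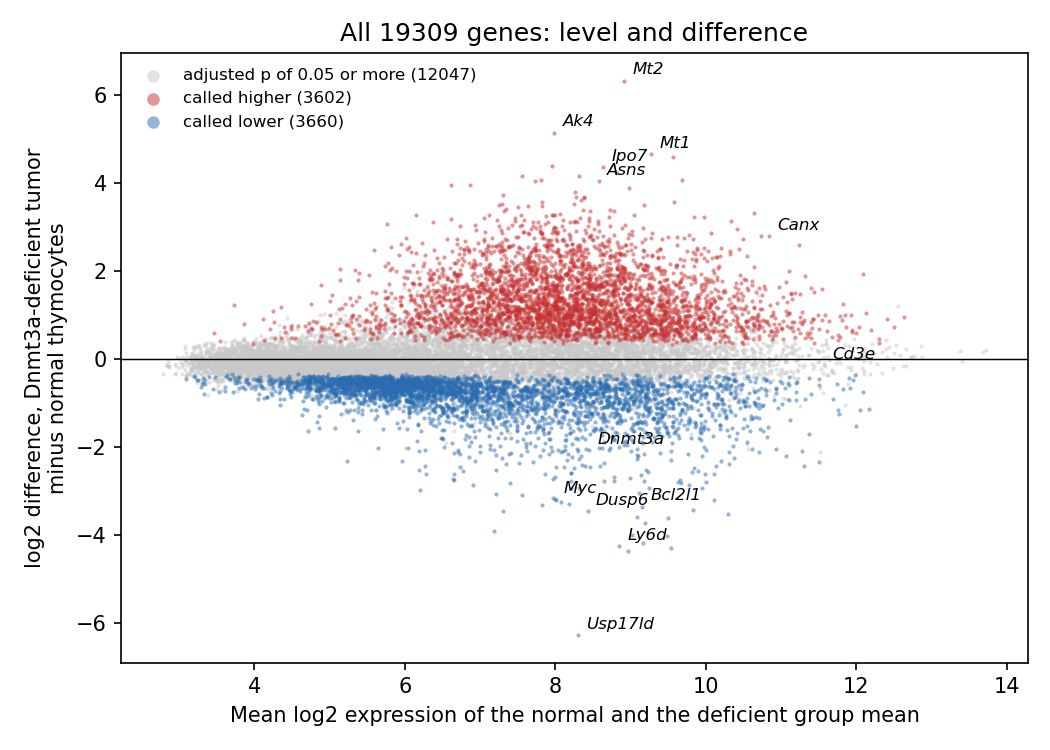
Each point is 1 of the 19309 genes, with the mean log2 expression of both group means on the x axis and the log2 difference, deficient tumor minus normal thymocytes, on the y axis. Called genes are coloured: 3602 higher genes reach further from 0 than the 3660 lower ones, and few genes of low level were called higher.

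The genes with the smallest p-values gave a first view of both directions. Among those higher were Mt1, which encodes a metallothionein that binds zinc and copper, Mdn1, an AAA ATPase that removes assembly factors from the large ribosomal subunit, and Riok2, a kinase of small subunit maturation. Among those lower were Ly6d, a surface protein of early lymphocytes, Dhrs3, a retinaldehyde reductase, St8sia1, the ganglioside GD3 synthase, and Cdkn2d, the p19 inhibitor of CDK4 and CDK6. Cdkn2d read 9.79, 9.86 and 9.81 in normal thymocytes and 6.48, 6.77, 6.48 and 6.40 in deficient tumors, with no overlap, and fell by 3.29 on the log2 scale (SE 0.24, limma adjusted p = 1.08e-06). Dhrs3 read 10.98, 11.03 and 11.13 against 7.08, 7.15, 7.85 and 7.23 and fell by 3.72 on the log2 scale (SE 0.25, limma adjusted p = 6.9e-07). In both, the 4 tumors lay closer to each other than to any normal array.

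The promoters of 6 genes that rose are shown because their sequences carry motifs bound by regulators of the gene groups described next: a metal response core for the metallothioneins, the MYC E-box for 2 nuclear transport genes and an E2F octamer for 2 genes of DNA synthesis and repair. Each run is the 250 bases before the RefSeq gene start on build GRCm38.p6, read 5′ to 3′ on the gene's strand, with the motif in capitals on whichever strand it lay. Mt2 (chr8:94172368-94172617, plus strand) held 3 metal response cores, TGCACNC or TGCGCNC, beginning 223, 128 and 50 bases before the start, and Mt1 (chr8:94178839-94179088, plus strand) held 1 at 23 bases.
Mt2: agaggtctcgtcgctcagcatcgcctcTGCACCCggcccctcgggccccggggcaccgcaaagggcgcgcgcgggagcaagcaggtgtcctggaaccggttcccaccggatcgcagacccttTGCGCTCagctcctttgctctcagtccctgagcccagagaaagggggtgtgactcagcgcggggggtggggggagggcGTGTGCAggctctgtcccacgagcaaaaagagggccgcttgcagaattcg
Mt1: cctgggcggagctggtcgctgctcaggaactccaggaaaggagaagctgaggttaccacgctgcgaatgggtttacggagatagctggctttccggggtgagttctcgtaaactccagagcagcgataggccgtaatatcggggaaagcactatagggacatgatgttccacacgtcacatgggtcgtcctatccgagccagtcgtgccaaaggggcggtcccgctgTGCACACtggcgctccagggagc
Ipo7 (chr7:110018065-110018314, plus strand) held the E-box CACGTG 137 bases before the start and Ranbp2 (chr10:58446602-58446851, plus strand) 87 bases before it.
Ipo7: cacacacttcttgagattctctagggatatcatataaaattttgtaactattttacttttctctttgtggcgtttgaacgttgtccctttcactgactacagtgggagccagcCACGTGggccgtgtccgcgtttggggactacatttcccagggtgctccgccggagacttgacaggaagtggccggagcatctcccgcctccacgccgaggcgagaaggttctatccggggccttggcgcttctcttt
Ranbp2: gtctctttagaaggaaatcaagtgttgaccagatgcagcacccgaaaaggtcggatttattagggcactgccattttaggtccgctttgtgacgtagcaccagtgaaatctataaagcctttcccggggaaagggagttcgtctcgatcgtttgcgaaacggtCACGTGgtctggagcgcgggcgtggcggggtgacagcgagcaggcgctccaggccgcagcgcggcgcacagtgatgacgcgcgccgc
Pola1 (chrX:93632156-93632405, minus strand) and Brca2 (chr5:150522371-150522620, plus strand) held the octamer TTTGGCGC or TTTCCCGC, 138 and 168 bases before the start.
Pola1: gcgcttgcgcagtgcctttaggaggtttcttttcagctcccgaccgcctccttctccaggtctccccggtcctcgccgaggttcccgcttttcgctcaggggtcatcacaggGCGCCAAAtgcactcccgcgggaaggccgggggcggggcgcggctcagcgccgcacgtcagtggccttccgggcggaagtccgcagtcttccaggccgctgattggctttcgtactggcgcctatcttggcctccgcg
Brca2: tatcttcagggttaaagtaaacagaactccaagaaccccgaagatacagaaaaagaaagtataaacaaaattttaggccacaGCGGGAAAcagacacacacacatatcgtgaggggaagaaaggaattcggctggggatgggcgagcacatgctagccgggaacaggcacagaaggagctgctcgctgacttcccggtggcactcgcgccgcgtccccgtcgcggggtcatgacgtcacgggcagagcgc
Both strands were searched, no printed match overlaps another, and a match describes the letters alone. The E-box was present in 6.02% of all 32851 RefSeq promoters of this length, in 9.42% of those of genes called higher, in 7.61% of those of genes called lower and in 6.13% of those not called. The E2F octamer was present in 1.3% of all promoters and in 2.99%, 1.91% and 1.46% of these groups in the same order. The metal response core, a short motif, was present in 21.4% of all promoters and in 31.7%, 26.4% and 23.6%. Base composition moved with these shares: the median GC content was 60% in promoters of genes called higher, 58.8% in those called lower and 54.8% in those not called, and its part in the shares was not tested.

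A list of T cell receptor chains, coreceptors and receptors that tune their signaling, such as Cd6, was lower. Of its 14 measured members, 8 fell, against 19.0% of all genes, and all 14 had a negative difference. In 11 every tumor lay below every normal array, as in 5157 of all 19309 genes. The median log2 difference was -1.46 against -0.10 over all genes. Cd6, a receptor that tunes signaling at the T cell contact site, read 11.41, 11.28 and 11.23 in normal thymocytes and 7.27, 9.12, 7.09 and 7.28 in deficient tumors. Deficient tumor 2 was the highest of the 4 and still lay below every normal array, and Cd6 fell by 3.62 on the log2 scale (SE 0.55, limma adjusted p = 0.000232). Cd5, a negative regulator set by receptor signal strength, read 11.39, 11.33 and 11.33 against 9.52, 10.67, 7.93 and 9.41 and fell by 1.97 (SE 0.43, limma adjusted p = 0.00306). Again tumor 2 was nearest to normal. The invariant chain Cd3e was not called: it read 11.47, 11.75 and 11.73 against 11.37, 11.55, 11.47 and 11.62, and the groups overlapped, with a log2 difference of -0.15 (SE 0.28, limma adjusted p = 0.705). The Cd3e difference was -1.17 with the array set as a term (limma adjusted p = 0.00331). The Cd3e call thus differed between both models.

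The coreceptors separated the 4 tumors from each other. Cd4 read 11.68, 11.66 and 11.73 in normal thymocytes and 10.80, 8.80, 10.23 and 9.89 in deficient tumors, and fell by 1.76 on the log2 scale (SE 0.41, limma adjusted p = 0.00475). Cd8a read 12.57, 12.53 and 12.63 against 11.37, 8.23, 10.98 and 11.28, a log2 difference of -2.11 that was not called (SE 0.83, limma adjusted p = 0.0617). It was called under some alternatives, as with a second quantile normalization (-2.29, adjusted p = 0.0447), cyclic loess (-2.42, adjusted p = 0.0381) or the array set (-3.74, adjusted p = 0.0439). Tumor 2 was the lowest for both coreceptors, and all 4 tumors lay below all 3 normal arrays for both. Since these are bulk samples, fewer cells of a type and less RNA per cell cannot be told apart in any of these values.

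V(D)J recombination, which cuts and joins antigen receptor genes, was divided, with 3 lymphoid-specific genes lower. The recombinase subunits Rag1 and Rag2 and the template-independent polymerase Dntt fell, 3 of 10 measured members, and 3 others rose. Of all genes 18.7% rose and 19.0% fell. The list's median log2 difference was 0.07, and its sign turned with the scaling (-0.26 to 0.15). Rag1 read 11.58, 11.65 and 11.82 in normal thymocytes and 9.43, 5.52, 7.73 and 6.93 in deficient tumors, and fell by 4.28 on the log2 scale (SE 1.02, limma adjusted p = 0.00531). The tumors spanned 3.91 log2 units, with tumor 1 the highest and tumor 2 the lowest, and none reached a normal array. Rag2 fell by 2.97 and Dntt by 4.00. The general end-joining kinase Prkdc rose by 2.55 on the log2 scale (SE 0.22, limma adjusted p = 3.36e-06), and the DNA end-binding subunit Xrcc5 by 1.34.

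Signaling molecules next to the receptor were more often lower than higher: of 29 measured, 12 fell and 2 rose (7 and 1 with the array set), with a median log2 difference of -0.63. Lat, the membrane scaffold that gathers signaling proteins, read 12.30, 12.33 and 12.36 in normal thymocytes and 11.26, 10.90, 11.23 and 11.33 in deficient tumors, and fell by 1.15 on the log2 scale (SE 0.20, limma adjusted p = 0.000528; -0.64 and adjusted p = 0.0857 with the array set). Of 24 thymocyte surface receptors, 11 fell and 1 rose. Of 19 homing and egress receptors, 9 fell and 1 rose (5 and 1 with the array set). The integrin subunits Itgb2 and Itgal and the chemokine receptors Ccr9 and Cxcr4 were among those lower, by log2 differences of -2.32, -2.20, -4.17 and -2.08, although Cxcr4 was not called with the array set (-0.69, adjusted p = 0.232). The integrin subunit Itga4, which binds VCAM-1 and fibronectin, went the other way: it read 8.22, 7.28 and 8.35 in normal thymocytes and 10.68, 11.27, 10.57 and 9.10 in deficient tumors, and rose by 2.45 on the log2 scale (SE 0.47, limma adjusted p = 0.00119). All 4 tumors lay above every normal array.

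**Figure D2:**
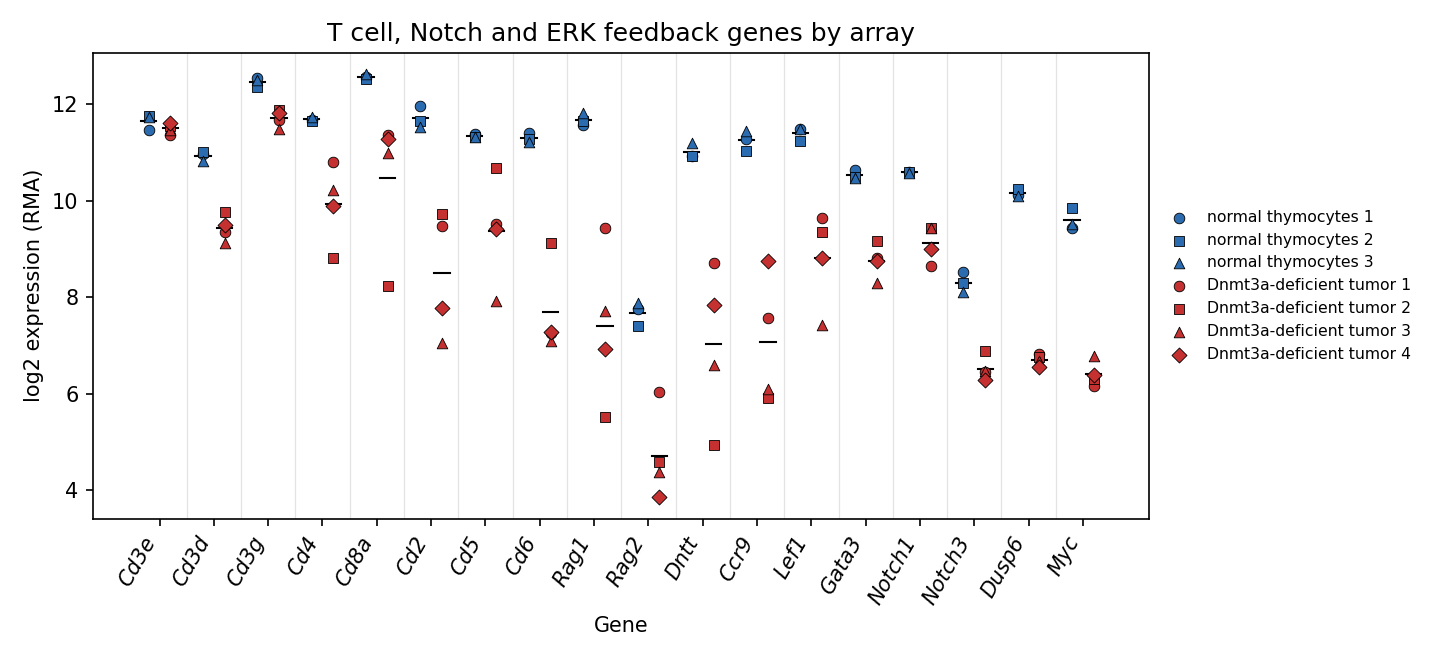
Log2 expression of genes of T cell identity and signaling in the 3 normal thymocyte arrays and the 4 Dnmt3a-deficient tumors, 1 marker shape per array number and black bars at the group means. Normal arrays lie close together, while the tumors are spread for many genes, with tumor 2 lowest for Rag1, Cd4 and Cd8a.

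Transcription factors of the T lineage fell in 13 of 31 measured cases and rose in 3. Lef1, which opens T cell genes with Tcf7, read 11.41 on average in normal thymocytes (SD 0.14, n = 3) and 8.81 in deficient tumors (SD 0.98, n = 4) and fell by 2.60 on the log2 scale (SE 0.39, limma adjusted p = 0.000211). Gata3, required at several thymic stages, fell by 1.78 and was also lower than in the control tumors by a log2 difference of -1.08 (limma adjusted p = 0.0197). Satb1, a chromatin organiser of thymocytes, fell by 2.34, and Bach2, a repressor that restrains effector genes, by 2.15. The count of 3 higher was 1 without normal thymocytes 3, without deficient tumor 1 and with the array set, where 14 fell.

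Notch receptors and several of their targets were lower. Notch1 read 10.59, 10.60 and 10.58 in normal thymocytes and 8.64, 9.44, 9.45 and 9.00 in deficient tumors, and fell by 1.46 on the log2 scale (SE 0.24, limma adjusted p = 0.000355). It was nevertheless higher in the deficient than in the control tumors, by a log2 difference of 0.98 (limma adjusted p = 0.0477), so the deficient tumors lay between both other groups. Notch3 fell by 1.78, the target Dtx1, a ubiquitin ligase, by 1.81, Hes1 by 0.96 and Ptcra, which encodes the pre-T cell receptor chain, by 1.43. The coactivator Maml1 fell by 1.81, whereas Adam10, the protease that cleaves the receptor, rose by 1.68. In all, 9 of 20 measured members fell and 3 rose. 5 fell and 1 rose with the array set, and Hes1 was not called (-0.67, adjusted p = 0.191).

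Feedback genes of ERK signaling were among the larger decreases. Dusp6, the phosphatase that switches ERK off, read 10.12, 10.25 and 10.09 in normal thymocytes and 6.83, 6.76, 6.67 and 6.56 in deficient tumors. Its mean fell by 3.45 on the log2 scale (SE 0.28, limma adjusted p = 1.95e-06), 10.9-fold, and lay below the control tumors by a log2 difference of -2.44 (limma adjusted p = 0.00312). Among the genes called in both contrasts it had the largest decrease from the control tumors. Of 24 early response and ERK feedback genes, 12 fell, Myc among them, and none rose (1 rose without deficient tumor 2). Dusp4 fell by 2.37, Dusp2 by 2.08 and Egr2 by 1.93, while Fos was not called (0.58). 5 of the 24 fell with the array set, and Dusp4 (-1.71, adjusted p = 0.053), Dusp2 (-0.52, adjusted p = 0.394) and Egr2 (-0.50, adjusted p = 0.618) were not among them.

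Cytokine receptors and their signaling chain were lower in 12 of 27 measured members and higher in 1. Ifngr1, the ligand-binding chain for interferon gamma, fell by 2.10 on the log2 scale (SE 0.25, limma adjusted p = 3.86e-05), Il4ra, shared by the receptors for several interleukins, by 2.08 and Il21r by 1.95. Il7r, on which thymocytes depend, was not called, with a log2 difference of 0.67 (SE 0.47, limma adjusted p = 0.283). Il4ra (-1.64, adjusted p = 0.128) and Il21r (-0.88, adjusted p = 0.443) were not called with the array set. Of 8 Gimap GTPases, which sustain lymphocyte survival, 5 fell, and Gimap6 fell by 2.74 (SE 0.44, limma adjusted p = 0.000332). Only 1 of the 8 was called with the array set, and Gimap6 stood at -1.67 (adjusted p = 0.0623).

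Genes for building ribosomes were higher across the nucleolus. Of 91 measured nucleolar assembly genes, 71 rose, against 18.7% of all genes, and 1 fell, with a median log2 difference of 1.41. The figures with the array set were 72, 0 and 1.45. Mdn1 read 7.20, 6.88 and 7.31 in normal thymocytes and 10.32, 9.82, 9.89 and 10.14 in deficient tumors, and rose by 2.92 on the log2 scale (SE 0.16, limma adjusted p = 3.01e-07). Dkc1, the pseudouridine synthase of H/ACA particles, read 7.10, 6.03 and 7.49 against 9.97, 9.87, 10.05 and 10.18, and rose by 3.14 (SE 0.28, limma adjusted p = 3.77e-06). The tumors differed from each other by far less than from the normal arrays, and normal thymocytes 2 was the lowest of all for both. Polr1b, a catalytic core subunit of RNA polymerase I, rose by 2.45 and Polr1a, the largest, by 1.82. Among 32 measured genes of polymerases I and III, 18 rose and 3 fell (11 and 4 with the array set, 14 and 6 after a second quantile normalization). Maf1, the repressor of polymerase III, was among the latter and fell by 1.80.

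Cytosolic ribosomal proteins rose less, with 28 of 56 higher, 1 lower and a median log2 difference of 0.34. Their counts depended on the scaling, with 17 higher and 4 lower under cyclic loess. Translation factors rose in 26 of 43 cases and fell in 2: Eif1a, which scans for the start codon with the small subunit, rose by 2.43 (SE 0.14, limma adjusted p = 3.01e-07), and the initiation subunits Eif2b3, Eif3a and Eif3e by 2.47, 2.08 and 2.02. Eif4e3, a cap-binding initiation factor, fell by 2.44. Of 34 tRNA synthetases, 21 rose and 1 fell (14 and 2 with cyclic loess), led by Eprs at 2.97 and Rars2 at 2.48. Nuclear import and export rose in 41 of 56 genes and fell in 2. Ipo7, an importin that carries ribosomal proteins into the nucleus and whose promoter with its E-box is shown above, read 7.31, 4.98 and 7.07 in normal thymocytes and 10.73, 10.73, 10.87 and 10.92 in deficient tumors. It rose by 4.36 (SE 0.41, limma adjusted p = 6.05e-06), or by 3.62 without normal thymocytes 2. Ranbp2, a filament protein of the nuclear pore, rose by 3.22 (SE 0.34, limma adjusted p = 1.33e-05).

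Of 37 nucleotide synthesis genes, 23 rose and 2 fell. Gmps, which makes GMP, rose by 2.32 and Dctd, which feeds thymidylate synthesis, by 2.66, while Dck, the salvage kinase for deoxycytidine, fell by 1.72. Of 31 one-carbon, serine and amino acid genes, 17 rose and 1 fell. Asns, asparagine synthetase, rose by 4.05, the transporter Slc7a5 by 2.10 and spermidine synthase Srm by 2.00, whereas glutamine synthetase Glul fell by 1.67. Cytosolic chaperones rose in 31 of 47 cases and fell in 1. Hsp90aa1 read 9.31, 7.57 and 10.04 in normal thymocytes and 12.20, 12.05, 12.39 and 12.57 in deficient tumors, and rose by 3.33 (SE 0.41, limma adjusted p = 4.83e-05). The normal arrays were spread more widely than the tumors, with number 2 lowest, and the tumors lay above all of them.

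Mitochondrial genes divided by function. Import, carrier and chaperone genes rose in 28 of 41 cases and none fell: Tomm70a, an outer membrane receptor for precursor proteins, rose by 2.15 and the matrix chaperone Hspa9 by 2.31. Mitochondrial ribosomal proteins rose in 38 of 75 cases and fell in 6. The counts were 33 and 2 without normal thymocytes 1, 34 and 3 without normal thymocytes 2, and 24 and 0 with the array set. The respiratory chain was divided, with 31 of 69 members higher, 9 lower (5 without normal thymocytes 1 or 2) and a median log2 difference of 0.28. Cycs, the electron carrier cytochrome c, read 9.42, 9.27 and 9.32 in normal thymocytes and 12.09, 12.04, 12.19 and 12.16 in deficient tumors, and rose by 2.79 (SE 0.34, limma adjusted p = 4.52e-05). Control tumors 1 and 2 read 11.69 and 11.79, near the deficient tumors, and control tumors 3 to 5 read 10.76, 10.30 and 10.14. With the array set Cycs rose by 1.44 (adjusted p = 0.000893), but only 8 respiratory chain members rose and 1 fell, and Ndufs4, a complex I subunit, went from 2.39 (limma adjusted p = 0.00269) to 0.28 (adjusted p = 0.512). The sign of the list's median also turned with the scaling, between -0.04 and 0.36. Among glycolysis genes 13 of 28 genes rose and 4 fell (2 without normal thymocytes 1 or 3 or deficient tumor 4). Hk2, the hexokinase of proliferating cells, rose by 1.11, the lactate exporter Slc16a3 by 2.17, and the pyruvate dehydrogenase kinase Pdk2 fell by 1.97.

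**Figure D3:**
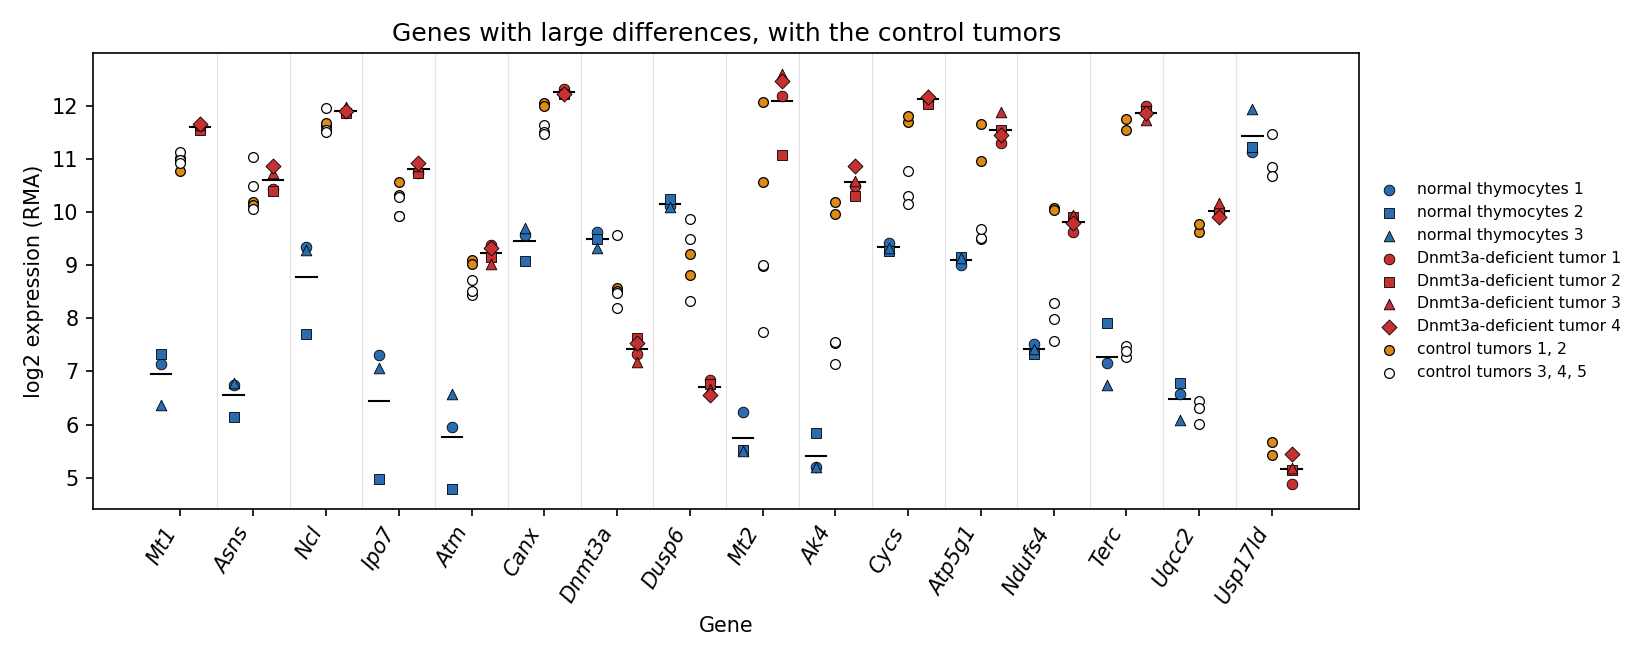
Log2 expression of 16 genes in normal thymocytes, control tumors and Dnmt3a-deficient tumors, with black bars at the means of the first and last group. For Mt1 and Ncl the control tumors lie together, whereas for Terc and Usp17ld control tumors 1 and 2 (orange) lie with the deficient tumors and control tumors 3 to 5 (open circles) with the normal arrays.

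Cell division genes were higher, in mitosis and replication alike. Of 98 mitosis genes, 69 rose and 3 fell, with a median log2 difference of 1.18. 51 rose and 1 fell with the array set, with a median of 0.79. Kif11, the motor that separates spindle poles, read 7.30, 6.10 and 7.72 in normal thymocytes and 10.81, 10.78, 10.98 and 11.12 in deficient tumors, and rose by 3.88 (SE 0.39, limma adjusted p = 1.01e-05). Cenpe, a kinetochore motor, rose by 3.53 (SE 0.49, limma adjusted p = 0.000104), although control tumors 1 to 5 spread from 9.24 and 8.67 to 8.08, 7.40 and 6.80. Of 59 replication genes, 34 rose and 2 fell. Pola1, the catalytic subunit of the polymerase that primes synthesis, whose promoter with its E2F octamer is shown above, rose by 3.11 (SE 0.27, limma adjusted p = 3.54e-06).

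All 6 origin recognition genes rose, by 0.82 to 2.57 on the log2 scale, among them Orc3 at 2.57 and Orc2 at 2.40. Of the MCM helicase subunits, Mcm4 rose by 1.48 (SE 0.14, limma adjusted p = 6.94e-06), while Mcm2, with a log2 difference of 0.09 whose sign turned with the scaling, was not called. It already read 10.87, 10.83 and 10.97 in normal thymocytes and 10.70, 10.95, 11.03 and 11.24 in deficient tumors, and the groups overlapped. The sliding clamp Pcna (0.29, SE 0.16, limma adjusted p = 0.173) was not called either, but was with the array set (0.70, adjusted p = 0.0203). Core and linker histones, made in S phase, included none called higher here, but 4 in a model of the 7 arrays alone and 3 with array weights: 13 of 27 fell, with a median log2 difference of -0.49, and 13 fell with the array set. The linker histone H1f1 read 12.24, 12.17 and 12.03 against 10.88, 11.25, 11.46 and 11.32, and fell by 0.92 (SE 0.15, limma adjusted p = 0.000383). Many histone genes are near-identical copies and their transcripts lack poly(A) tails, so single members are uncertain.

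DNA repair genes rose in 29 of 47 cases and fell in 2, and 29 rose with the array set too. Atm, the kinase that signals double-strand breaks, read 5.95, 4.80 and 6.58 in normal thymocytes and 9.38, 9.15, 9.03 and 9.33 in deficient tumors, and rose by 3.45 (SE 0.32, limma adjusted p = 5.28e-06). The tumors lay within a narrow band above all normal arrays. Atr, its partner for stalled forks, rose by 3.28, the checkpoint kinase Chek1 by 3.20 and Brca2, a DNA repair gene, by 3.03. Regulators of G1 were divided, with 16 of 31 higher and 7 lower, but 10 and 8 with cyclic loess or a second quantile normalization and 7 and 6 with the array set. Ccne2, a cyclin E, rose by 2.58 and also exceeded the control tumors by a log2 difference of 1.21 (limma adjusted p = 0.0453). Cdk6 rose by 1.73, and Ccnd3, the D cyclin of thymocyte expansion, fell by 2.25 (SE 0.36, limma adjusted p = 0.00036). Ccnd1 was high in 3 of 4 tumors: it read 8.88, 7.13, 9.32 and 9.81 against 6.16, 7.29 and 6.76 in normal thymocytes, a rise of 2.05 (limma adjusted p = 0.0145) that was not called with the array set (0.70, adjusted p = 0.62) or without normal thymocytes 1 (1.77, adjusted p = 0.0646).

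DNA methylation genes other than Dnmt3a were more often called higher than lower. The maintenance enzyme Dnmt1 read 10.64, 10.69 and 10.72 in normal thymocytes and 11.07, 10.72, 11.16 and 11.40 in deficient tumors, a log2 difference of 0.40 that was not called (SE 0.15, limma adjusted p = 0.0539). It was called without deficient tumor 2 (0.53, adjusted p = 0.0118) and with median centring (0.48, adjusted p = 0.0365), and stood at 0.09 with cyclic loess (adjusted p = 0.678). The other de novo enzyme, Dnmt3b, read 6.68, 6.95 and 6.68 against 7.21, 7.80, 7.53 and 7.20, and rose by 0.66 (SE 0.23, limma adjusted p = 0.0368). All 4 tumor values lay above every normal array, but the call ended without any 1 of the normal arrays or without deficient tumor 2 or 3 (log2 differences of 0.54 to 0.75, adjusted p = 0.053 to 0.106), and after a second quantile normalization (0.49, adjusted p = 0.145). Tet2, which oxidises methylcytosine, rose by 1.96 (SE 0.29, limma adjusted p = 0.000179) and Hells, a remodeler needed for methylation, by 2.32 (SE 0.38, limma adjusted p = 0.000403). Gadd45b, a stress gene tied to demethylation, rose by 1.02 (SE 0.27, limma adjusted p = 0.0104) and exceeded the control tumors by a log2 difference of 1.80 (limma adjusted p = 0.0144) but against normal thymocytes it was not called with the array set (1.12, adjusted p = 0.0932) without normal thymocytes 3 (0.88, adjusted p = 0.0508) or after a second quantile normalization (0.65, adjusted p = 0.092). In all, 8 of 25 rose and 4 fell (32.0% and 16.0%, against 18.7% and 19.0% of all genes), Dnmt3a itself among the latter. Only 2 fell without any 1 of the normal arrays or of deficient tumors 1 and 2. The counts were 4 and 3 with the array set, and 6 and 5 when quantile normalization was repeated.

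Polycomb genes, which silence developmental genes through histone H3 and H2A, rose in 13 of 28 cases and fell in 6. With a second quantile normalization 10 rose and 10 fell, with cyclic loess 12 and 10, and with the array set 5 and 5. Suz12, a core subunit of PRC2, read 8.26, 7.12 and 8.19 in normal thymocytes and 10.66, 10.66, 10.85 and 10.71 in deficient tumors, and rose by 2.86 (SE 0.28, limma adjusted p = 7.61e-06). Eed, another, rose by 1.37, but with the mean of its probe sets by 0.40 and without a call (adjusted p = 0.058). Pcgf6, of a PRC1 variant, rose by 3.02, while the chromobox gene Cbx2 fell by 0.69. Germline and imprinted genes include many whose silencing rests on DNA methylation. Of 40 germline genes, 1 rose and 5 fell (2.5% and 12.5%), with 2 or 3 lower when normal thymocytes 2 or 3 or deficient tumor 1, 2 or 4 was left out. The germline counts were 0 and 1 with the array set and 1 and 7 in a model of the 7 arrays alone. The median log2 level of the germline genes in normal thymocytes was 4.91. Of the 4828 genes of lowest mean level 47 (0.973%) were higher and 484 lower. Of 30 imprinted genes, 4 rose and 4 fell (13.3% each, against 18.7% and 19.0% of all genes). Of these 30, 2 were lower without normal thymocytes 3 or deficient tumor 1 or 2. The imprinted counts were 1 and 7 with the array set and 4 and 7 in a model of the 7 arrays alone. Syce2, a protein of the meiotic synaptonemal complex, was the germline gene that rose: it read 7.53, 7.14 and 7.33 in normal thymocytes and 8.82, 10.01, 9.12 and 9.68 in deficient tumors, a rise of 2.07 (SE 0.37, limma adjusted p = 0.000821), and exceeded the control tumors by 1.78 (limma adjusted p = 0.0323). It was not called against normal thymocytes with the array set (0.90, adjusted p = 0.16). Airn, the antisense RNA that silences Igf2r, rose by 3.11 (SE 0.38, limma adjusted p = 4.25e-05), and Cdkn1c, an imprinted CDK inhibitor, fell by 1.01 (SE 0.20, limma adjusted p = 0.00137). Airn overlaps Igf2r on the opposite strand, so its signal is uncertain to that extent.

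**Figure D4:**
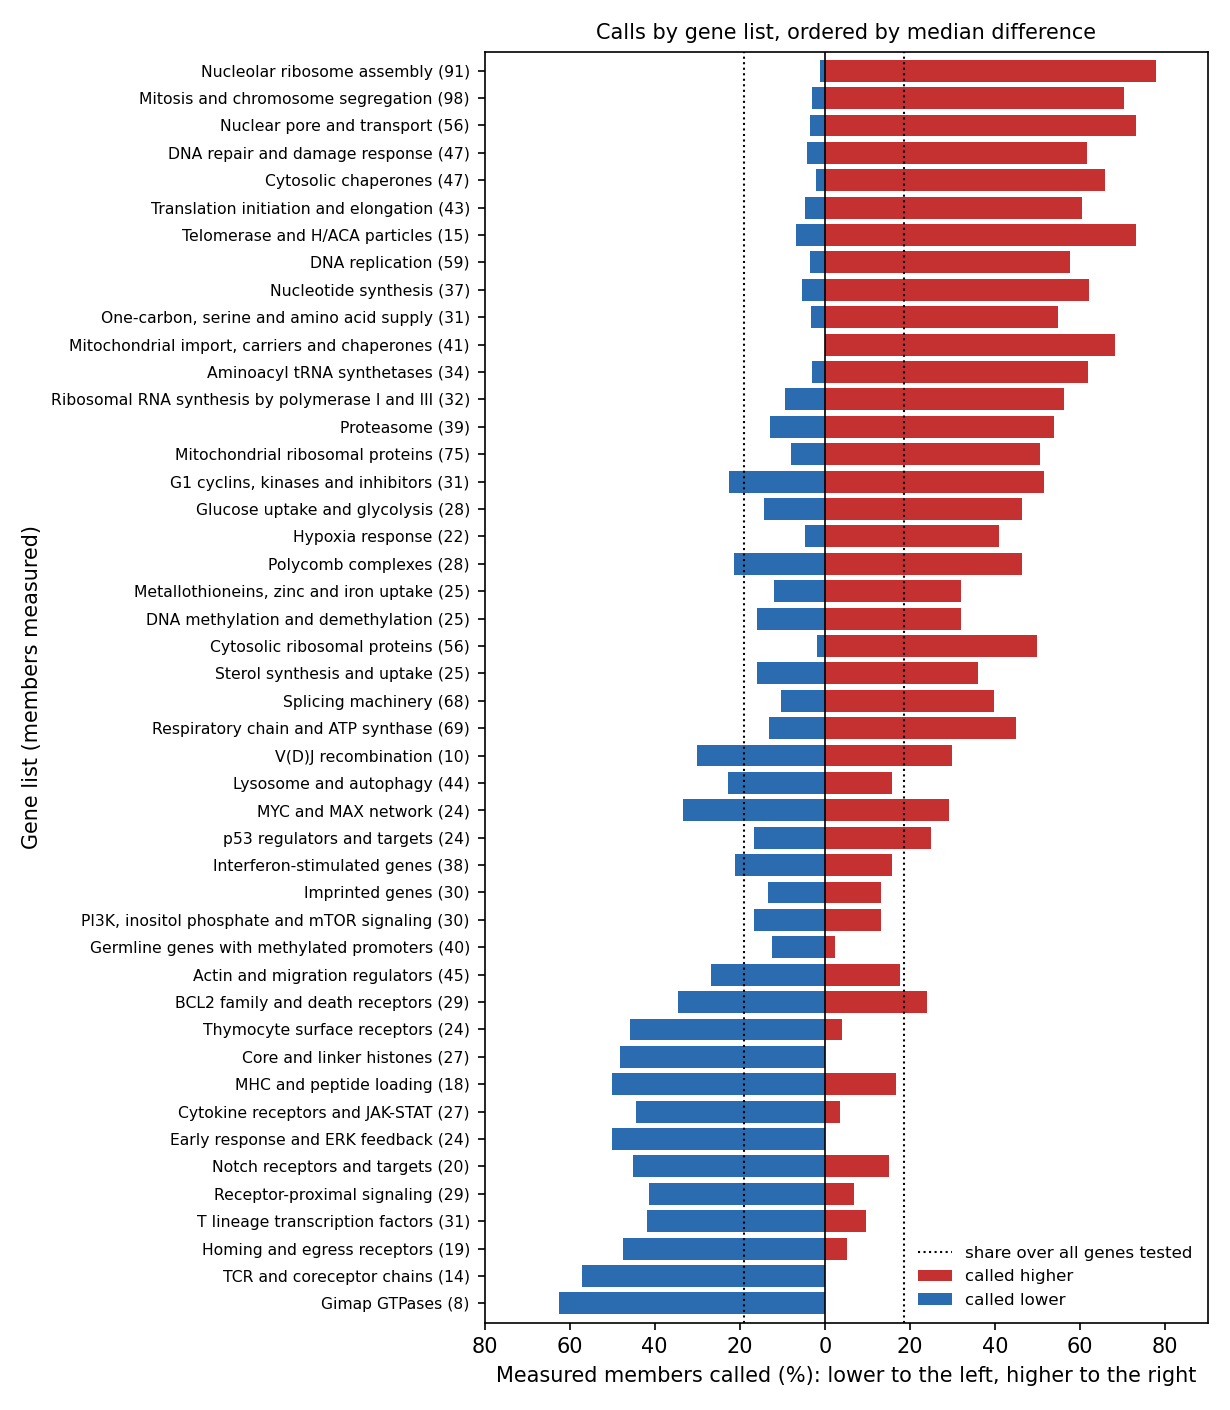
Share of measured members of each of 46 gene lists called higher (right) or lower (left) in deficient tumors against normal thymocytes, ordered by median log2 difference, with the number measured in brackets. Dotted lines mark 18.7% higher and 19.0% lower over all genes tested.

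The MYC network was divided, with 7 of 24 members higher, 8 lower, Myc itself among these, and a median log2 difference of -0.05 whose sign turned with the scaling (-0.26 to 0.03). Mga, a MAX partner that opposes MYC, rose by 2.47 (SE 0.32, limma adjusted p = 6.71e-05), and Huwe1, a ubiquitin ligase of MYC, by 2.14 (SE 0.21, limma adjusted p = 7.12e-06). The MAX-binding repressors Mxd3 and Mxd4 fell by 1.16 and 1.66, and Mycn fell by 1.27. Genes of apoptosis were lower in 10 of 29 cases and higher in 7 (12 and 4 after a second quantile normalization, 9 and 3 with the array set). Members of both directions of effect were among them: the protectors Bcl2l1, Mcl1 and Cflar fell by 3.35, 1.58 and 1.64, and the death promoters Bmf and Fas by 2.16 and 1.82. Bcl2l1 (BCL-XL), which keeps CD4 CD8 thymocytes alive, read 10.80, 10.94 and 10.76 in normal thymocytes and 8.51, 7.02, 7.20 and 7.20 in deficient tumors (SE 0.45, limma adjusted p = 8.33e-05). Tumor 1 was the highest of the 4 and far below normal. Cflar, which blocks death receptor signaling, was also lower than in the control tumors by -1.08 (limma adjusted p = 0.0443). Bid, which links death receptors to mitochondria, rose by 1.58, but not with the array set (0.27, adjusted p = 0.558). Regulators and targets of p53 rose in 6 of 24 cases and fell in 4 (3 and 6 with the array set). Of all genes 18.7% rose and 19.0% fell. The median log2 difference of the p53 list, -0.09, lay near the -0.10 of all genes. Cyclin G1, Ccng1, rose by 2.51 (SE 0.27, limma adjusted p = 1.66e-05), while Gadd45a fell by 2.00 and Btg2 by 1.87.

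Metal handling held the largest increase of any called gene, Mt2. This metallothionein read 6.24, 5.51 and 5.51 in normal thymocytes and 12.18, 11.07, 12.60 and 12.46 in deficient tumors, a rise of 6.32 (SE 0.77, limma adjusted p = 4.01e-05), and Mt1 rose by 4.66 (SE 0.20, limma adjusted p = 6.22e-08), 25.3-fold, from 7.14, 7.33 and 6.36 to 11.59, 11.54, 11.64 and 11.65. The 4 tumors were alike for Mt1, and tumor 2 was the lowest for Mt2. The control tumors split for Mt2, at 10.57 and 12.07 in numbers 1 and 2 and 8.98, 8.99 and 7.74 in numbers 3 to 5, and with the array set Mt2 rose by 3.58 (adjusted p = 0.00309). Mt1 rose by 4.78 with that term. The zinc importer Slc39a10 rose by 2.61 and the transferrin receptor Tfrc by 2.73. In all, 8 of 25 metal genes rose and 3 fell (6 and 5 after a second quantile normalization).

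Genes of telomerase and its particle rose in 11 of 15 cases and 1 fell, with 7 higher without normal thymocytes 2 and 6 with the array set. The RNA template Terc, which lacks a poly(A) tail, read 7.15, 7.92 and 6.75 in normal thymocytes and 11.98, 11.90, 11.73 and 11.85 in deficient tumors, a rise of 4.59 (SE 1.01, limma adjusted p = 0.0031). Control tumors 1 and 2 read 11.76 and 11.54, and control tumors 3 to 5 read 7.28, 7.48 and 7.38, at the normal level. The difference was 0.33 with the array set (adjusted p = 0.579). Usp17ld, a deubiquitinase, ran the other way, with 11.13, 11.22 and 11.93 in normal thymocytes, 4.88, 5.14, 5.18 and 5.46 in deficient tumors, 5.68 and 5.44 in control tumors 1 and 2, and 11.47, 10.85 and 10.68 in control tumors 3 to 5. It fell by 6.26 on the log2 scale (limma adjusted p = 0.00192), and with the array set the difference was -0.82 (adjusted p = 0.145). The cause of this split was not tested. Hypoxia genes rose in 9 of 22 cases and fell in 1, with a median log2 difference of 0.48, but with the array set in 4 and 1, with a median of 0.05. Hif1a rose by 1.68 and the oxidase Ero1a by 2.38.

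Genes of antigen presentation were lower: of 18 MHC and peptide loading genes, 9 fell and 3 rose. The peptide transporter subunit Tap1 fell by 1.33 and the nonclassical class I gene H2-T10 by 3.44 (SE 0.59, limma adjusted p = 0.000594). The chaperone Canx, which folds many other glycoproteins too, rose by 2.80. 4 fell and 3 rose with the array set. Interferon-stimulated genes gave 6 higher and 8 lower of 38 (15.8% and 21.1%, near the 18.7% and 19.0% of all genes). Their median log2 difference was -0.14, and with the array set 1 was higher and 9 lower. Irf7, which amplifies interferon production, fell by 1.45 (SE 0.20, limma adjusted p = 0.000104) and Ifi27 by 1.59 (SE 0.19, limma adjusted p = 3.91e-05). Parp14 read 6.66, 6.29 and 6.93 in normal thymocytes and 7.59, 7.30, 7.19 and 7.43 in deficient tumors and rose by 0.75 (SE 0.20, limma adjusted p = 0.00933). Without normal thymocytes 2 it was not called (0.58, adjusted p = 0.0556), and 3 of the 38 were higher. Against the control tumors the same list had 7 members higher and none lower, where 0.818% of all genes were called in either direction. Usp18, which removes the ubiquitin-like modifier ISG15, led these with a log2 difference of 1.91, followed by the GTPase Irgm1 with 1.59, Parp14 with 1.18 and, among the rest, the antiviral enzyme Rsad2 with 0.86. Of the 7, Parp14 and Rsad2 were also called higher than normal thymocytes, and neither with the array set (0.32 and 0.42, adjusted p = 0.467 and 0.302).

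The mean log2 level of 13 T cell markers lay at 11.53 to 11.56 in normal thymocytes and at 9.68 to 10.47 in deficient tumors, and 8 of the 13 fell. Macrophage markers lay at 6.35 to 6.48 against 6.50 to 7.20, with 3 of 17 higher and 1 lower (1 higher without normal thymocytes 2). Fcgr3, an Fc receptor of myeloid cells, was 1.41 higher but not called with the array set (1.08, adjusted p = 0.146). B cell markers lay at 5.92 to 6.03 against 5.49 to 5.97, with 1 of 13 higher and 2 lower. Dendritic cell markers lay at 7.13 to 7.28 against 6.72 to 7.01, with 2 of 16 higher and 5 lower (1 lower without normal thymocytes 2). The class II chain H2-Eb1 rose by 1.33 (SE 0.23, limma adjusted p = 0.000661). It was the upper end of the dendritic cell list, whose log2 differences ran from -4.17 to 1.33. Neutrophil markers lay at 6.18 to 6.57 against 5.35 to 6.03, with 1 of 15 lower, and erythroid markers at 5.81 to 6.16 against 5.38 to 5.69, with 3 of 12 lower. Adipocyte markers lay at 5.66 to 5.78 in normal thymocytes against 5.80 to 6.02 in deficient tumors, with 1 of 14 higher and 1 lower. The ranges of natural killer, thymic epithelial and fibroblast or endothelial lists overlapped between the groups, with at most 1 higher gene each and 2 to 5 lower. Over all genes, 18.7% were higher and 19.0% lower. The part of other cells in any result was not tested.

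Among the 46 lists, the mean level varied most over the 4 deficient tumors for Gimap GTPases, by 1.44 log2 units, and V(D)J recombination. For 90 lower genes of the T cell lists, tumor 3 was the lowest of the 4 for 31 and tumor 2 the highest for 46. The mean log2 level of the V(D)J list ran from 7.16 in tumor 2 to 8.56 in tumor 1, a range of 1.40, against 0.28 for the nucleolar list, whose mean ran from 9.45 to 9.73. These means cover 8 Gimap, 10 V(D)J and 91 nucleolar genes, and the part of list size in the ranges was not tested. Single genes parted 1 tumor from the rest. Nr1h5, a nuclear receptor, read 4.74 in tumor 1, at the normal level of 4.49 to 4.83, and 10.14, 9.46 and 10.01 in tumors 2 to 4. Slc15a2, a peptide transporter, read 8.55 in tumor 1 and 4.75, 4.70 and 4.68 in the others, with 7.30 to 8.12 in normal thymocytes. Arsi, a sulfatase, read 9.99 in tumor 1, within reach of the normal 9.55 to 9.87, and 5.56, 6.91 and 6.53 in the others. Gdpd3, a phospholipase, read 5.12 in tumor 2 and 9.96, 9.27 and 9.58 in tumors 1, 3 and 4, against 11.34 to 11.47 in normal thymocytes. Nr1h5, Slc15a2, Arsi and Gdpd3 were called (limma adjusted p = 0.0173, 0.0472, 0.0228 and 0.022), none of them with the array set. Without normal thymocytes 3 none of the 4 was called (adjusted p = 0.0529, 0.136, 0.0584 and 0.06). Fads2, a fatty acid desaturase, read 5.80, 6.12, 7.96 and 10.17 and was not called (limma adjusted p = 0.346), except without deficient tumor 4 (-1.99, adjusted p = 0.0401). These genes were chosen for their spread, which is therefore a description.

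**Figure D5:**
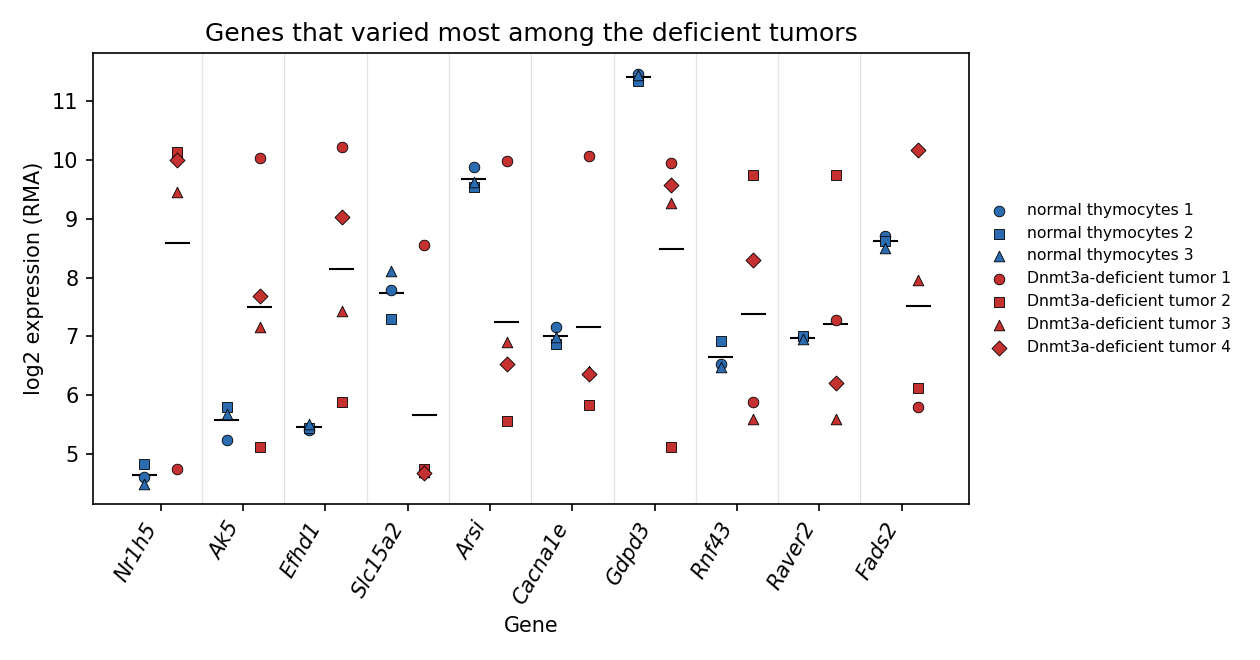
Log2 expression of the 10 named genes with the largest SD over the 4 Dnmt3a-deficient tumors among genes above the median level, with the normal thymocyte arrays beside them and black bars at the group means. The normal arrays span less than the tumors, and 1 tumor can stand apart, as tumor 1 does for Slc15a2 at 8.55 against 4.68 to 4.75.

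In the direct comparison of deficient with control tumors 158 genes, 0.818% of those tested, were called, and 3897 had an unadjusted p under 0.05. Of the genes higher than normal thymocytes, 83 were also higher than the control tumors, and of the genes lower, 25 were also lower. Both comparisons use the same deficient arrays, so these counts are not independent. Beside Dusp6 and Dnmt3a, the second group held Ptk2b, a calcium-responsive kinase, at -2.14 against normal and -1.10 against control, and St6gal1, the sialyltransferase that makes the CD22 ligand, at -2.29 and -1.49. The first held Pkn3, a protein kinase, at 1.68 and 1.84. Irak3, which dampens Toll-like receptor signaling, lay between the groups: it rose by 1.12 from normal thymocytes and was lower than in control tumors by -1.47 (limma adjusted p = 0.0453). The Irak3 rise was not called without normal thymocytes 2 (0.95, adjusted p = 0.0882), without deficient tumor 1 (0.92, adjusted p = 0.0543) or with the array set (0.81, adjusted p = 0.341), nor was that of Pkn3 with the array set (1.08, adjusted p = 0.14). The count of 158 depended on the control arrays. It was 4886 without control tumors 1 and 2, 67 with the array set as a term, and 16 to 154 when single normal or deficient arrays were left out, the lowest without deficient tumor 4. An ordinary linear model without moderation called 0, with 3520 genes at an unadjusted p under 0.05.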

How the data were processed

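RNA from thymus samples was hybridised to expression arrays. The deposited value table holds log2 expression per probe set; the submitters' processing notes name Affymetrix Expression Console and RMA as the tools the authors used. Of 23858 probe sets, 20870 have 1 gene symbol, 1453 several and 1535 none. Only the first kind was used, with the probe set of the highest mean over all 12 arrays kept for each of 849 genes with more than 1, which left 19309 genes. Symbols come from the platform annotation, and 19267 genes were found in RefSeq GRCm38.p6.

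One model with the 3 groups was fitted to all 12 arrays with limma 3.58.1 in R 4.3.3 (lmFit and eBayes, 9 residual degrees of freedom), with two-sided p-values adjusted by Benjamini-Hochberg over all 19309 genes and calls at an adjusted p under 0.05. The groups and 46 gene lists were chosen with earlier results of these data known. Genes are named from the largest changes, the smallest p-values, the most variable genes and antigen receptor segments over the deficient tumors, 8 genes of methylation, MYC and T cell identity, up to 5 called members in each direction of each list and the largest differences from control tumors, and the text prints part of them. Fos, H1f1, Hes1, Hif1a, Il7r, Irgm1, Mcm2, Mcm4, Pcna and Usp18 were named after their values were seen. In simulated data 200 genes were changed. The model recovered 10.4%, 62.7% and 95.5% of those changed by 0.5, 1 and 2 on the log2 scale, and called 7 unchanged genes. Same-numbered normal and deficient arrays correlated at 0.012, 0.087 and -0.014 in their deviations from group means. These values gave no sign of pairing by number, but they cannot settle how the samples were collected or handled. The alternatives were other scalings, filters, variance models, sample sets and, chosen after seeing the data, the array set as a term. The number of arrays limits the precision.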

Additional observations from a re-analysis of the deposited data

Results flagged for a closer look

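In 11 of the 147 genes named, 1 of the 4 deficient tumors lay apart from the other 3 by more than Dixon's critical share of the whole range. Chance sets apart about 1 in 20 groups, but some of these genes were named for their spread over the same tumors, so their number is not read against that share. Tumor 2 accounted for 6 of them. It was high for Lsp1 at 10.06 (others 7.97 to 8.31), Cd6 at 9.12 (others 7.09 to 7.28) and Dusp2 at 8.64 (others 7.72 to 7.76), and low for Cd8a at 8.23 (others 10.98 to 11.37), Gdpd3 at 5.12 (others 9.27 to 9.96) and Rsad2 at 6.31 (others 6.84 to 6.87). Tumor 1 was high for Bcl2l1 at 8.51 (others 7.02 to 7.20) and Slc15a2 at 8.55 (others 4.68 to 4.75), and low for Nr1h5 at 4.74 (others 9.46 to 10.14). Cflar was lowest in tumor 3 at 6.19 (others 6.80 to 6.89), and Bach2 in tumor 4 at 5.39 (others 5.72 to 5.76).

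For 17 of the named genes the change from normal thymocytes differed between deficient and control tumors at a limma adjusted p under 0.05. Over all genes tested, 0.818% were called in this contrast. Some of the named genes were chosen for this same difference, so their number is not read against that share. The deficient tumors were higher by log2 differences of 1.91 for Usp18, 1.84 for Pkn3, 1.80 for Gadd45b, 1.78 for Syce2, 1.59 for Irgm1, 1.31 for H2-Eb1, 1.21 for Ccne2, 1.18 for Parp14, 0.98 for Notch1 and 0.86 for Rsad2. They were lower by log2 differences of -2.44 for Dusp6, -1.49 for St6gal1, -1.47 for Irak3, -1.25 for Dnmt3a, -1.10 for Ptk2b, -1.08 for Gata3 and -1.08 for Cflar.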

How the results depend on the processing

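Of the 147 genes named, 112 kept their direction and their side of the threshold under all 20 alternatives, and 132 under all but the array set, with which 25 calls ended. Genes called lower numbered 3660, against 2006 without the dimmest 50% of genes, 1860 at an adjusted p under 0.01 and 2425 to 3282 when single arrays were left out, the lowest without normal thymocytes 2. With the array set 1922 genes were higher, 1640 lower and 1432 at least 2-fold higher. The share of calls that were higher was 49.6%, but 60.4% with median centring and 63.2% without the dimmest genes. The median over all genes was -0.1024, and -0.0011 with cyclic loess. The 158 genes called against the control tumors became 378 with median centring, 4886 without control tumors 1 and 2, 3328 with array weights, 0 with the ordinary test without moderation (3520 at an unadjusted p under 0.05), 67 with the array set, 1 at an adjusted p under 0.01 and 16 to 154 when single normal or deficient arrays were left out. Fewer genes tested, fewer arrays or a stricter threshold are part of some of these settings, and the causes were not tested further. The Mcm2 difference of 0.09 was -0.063 after a second quantile normalization and -0.22 with cyclic loess, and Usp18 against normal thymocytes was -0.27 with the array set. Of 46 lists, those with more members higher than lower numbered 26, and 24 to 29 under the alternatives. With the replicate number as a block, for which the check gave no sign of pairing, 3597 genes were higher, 3331 lower and 104 called against the control tumors. Of the genes named, 1 call ended and 1 was gained under that block. In the simulation only 200 of 19309 genes were changed, so its 10.4% recovery at 0.5 need not hold for these data. Here 276 genes under 1.5-fold were called higher and 1024 lower.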

Other observations

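Of 50 small nucleolar RNA genes, which guide ribosomal RNA modification, 28 rose and 6 fell (56% and 12%, against 18.7% and 19.0% of all genes), with a median log2 difference of 0.95. Of 296 microRNA precursor genes, 10 rose and 86 fell (3.38% and 29.1%), with a median of -0.34. Of 1024 olfactory receptor genes, 18 rose and 37 fell (1.76% and 3.61%), with a median of -0.03. The median log2 level in normal thymocytes was 8.36, 5.07 and 4.26 for these classes in order, and of the 4828 genes of lowest mean level over the 7 arrays, up to 5.24, 47 (0.973%) were higher and 484 lower.

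Other lists outside the account above were the proteasome, with 21 of 39 genes higher and 5 lower (1 lower without normal thymocytes 2, and 14 and 9 with cyclic loess), the splicing machinery, with 27 of 68 higher and 7 lower (15 and 16 with cyclic loess, 3 lower without normal thymocytes 2), and sterol synthesis and uptake, with 9 of 25 higher and 4 lower (5 and 6 after a second quantile normalization, 5 and 3 with the array set). Lysosome and autophagy genes gave 7 of 44 higher and 10 lower (15.9% and 22.7%, near the 18.7% and 19.0% of all genes). The counts were 7 and 15 with cyclic loess and 6 and 15 with the array set. Lipa, the lysosomal acid lipase, fell by 2.87 on the log2 scale (SE 0.51, limma adjusted p = 0.000719). Actin and migration regulators gave 8 of 45 higher (3 without normal thymocytes 2) and 12 lower, shares of 17.8% and 26.7%. The counts were 2 and 22 with cyclic loess, 3 and 8 with the array set and 4 and 19 when quantile normalization was repeated. Lsp1, an actin-binding protein of leukocytes, fell by 2.55 (SE 0.45, limma adjusted p = 0.000749). Genes of PI3K, inositol phosphate and mTOR signaling gave 4 of 30 higher and 5 lower, shares of 13.3% and 16.7%. Both shares lay below the 18.7% and 19.0% of all genes. The list had 9 lower without deficient tumor 2. Its counts were 3 and 11 with cyclic loess, 1 and 8 with the array set and 3 and 10 when quantile normalization was repeated.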
